A study of Mus musculus with 29 samples.

Results

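The 10 genes described here encode interferon-gamma inducible GTPases: the immunity-related GTPases (IRG) Igtp, Irgm1, Irgm2, Iigp1, Tgtp1 and Ifi47 and the guanylate-binding proteins (GBP) Gbp2, Gbp3, Gbp6 and Gbp7. They were taken by gene symbol from the 55421 genes of the count table, and all 10 were found. RNA of whole mouse liver was sequenced in 6 groups. Old C57BL/6J females of 20 months and old C57BL/6J males of 24 months had received vehicle (methylcellulose in phosphate buffer) or HDM201 at 10 mg/kg, an inhibitor of MDM2 that activates p53, by daily gavage for 14 days. Young C57BL6/N females and males of 5 months had received vehicle by the same route. Age in every comparison of old with young mice therefore cannot be told apart from the C57BL/6 substrain, and the ages in the labels differ from those in the study's methods by 1 month for the young mice and the old females. Counts were available for 27 mice: 5 young vehicle females, 4 old vehicle females, 5 old HDM201 females, 4 young vehicle males (mice 1 to 4), 4 old vehicle males (mice 2 to 5) and 5 old HDM201 males. FPKM values were available for 29, adding old vehicle male 1 and young vehicle male 5. The labels name separate mice of each group without saying whether they shared a litter or cage.

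IRG and GBP proteins are among the most strongly interferon-induced proteins of the mouse. Interferon-gamma binds the receptor made of Ifngr1 and Ifngr2, the kinases Jak1 and Jak2 pass on the signal, and transcription factors then bind GAS elements or, as Irf1 does, ISRE elements before the induced genes. Among the IRG proteins, Igtp (also called Irgm3), Irgm1 and Irgm2 are regulators that sit on membranes of the host cell and keep the effectors Iigp1 (Irga6), Tgtp1 (Irgb6) and Ifi47 (Irgd) inactive there, whereas the effectors and the GBP proteins gather on vacuoles that hold bacteria or parasites and help to break them. In liver the genes can be induced in hepatocytes as well as in macrophages and endothelial cells, so their RNA in whole tissue has no single cellular source. Fewer cells of a type and less RNA per cell cannot be told apart in bulk samples.

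Because these genes are classical targets of interferon signalling through both elements, the sequence before their start sites is shown with the letters of both elements in capitals. RefSeq promoters (GRCm38.p6) were at hand for 8 of the 10 genes, and the 250 bases before the start were searched for GAS, written TTCNNNGAA and the same on both strands, and for ISRE, taken as a pair of GAAA separated by any 2 bases on either strand. GAS letters were present in 4 of the 8 genes and in 7.02% of all 32851 promoters, ISRE letters in 7 of the 8 genes and in 2.98% of promoters, and both in 4 of the 8 genes and in 0.332% of promoters. Gbp3 had another promoter with neither set of letters and was counted by the one that held ISRE, whereas the shares of all promoters count each promoter alone. No GAS match overlapped an ISRE match. In Igtp, Irgm2 and Tgtp1 the GAS stood 2 bases upstream of the ISRE:

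Igtp, chr11:58199499-58199543, plus strand: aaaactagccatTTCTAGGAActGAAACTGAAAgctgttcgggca

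Irgm2, chr11:58214890-58214934, plus strand: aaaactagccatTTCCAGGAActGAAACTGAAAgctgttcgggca

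Tgtp1, chr11:48992302-48992346, minus strand: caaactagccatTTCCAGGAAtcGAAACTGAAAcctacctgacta

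The windows of Igtp and Irgm2 were identical at 44 of 45 bases, and those of Tgtp1 and Irgm2 at 34 of 45. In GENCODE vM21 the Igtp window lies outside any gene, the Irgm2 window within Irgm2 but outside its exons, and the Tgtp1 window within Tgtp1 and Olfr56 but outside exons. Gbp7 carried a pair of GAS elements and, further downstream, a reversed ISRE, both outside any annotated gene:

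Gbp7, chr3:142530218-142530269, plus strand: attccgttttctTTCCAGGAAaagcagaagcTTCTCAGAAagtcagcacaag

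Gbp7, chr3:142530271-142530304, plus strand: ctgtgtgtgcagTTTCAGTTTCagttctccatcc

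Irgm1, Gbp3 and Gbp2 held ISRE letters without GAS in the searched bases. Irgm1 and Gbp3 each had 2 overlapping ISRE matches, and the windows of Irgm1 and Gbp2 touch a GENCODE exon of the same gene:

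Irgm1, chr11:48871431-48871454, minus strand: tcaaGAAATAGAAACCGAAActga

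Gbp3, chr3:142559995-142560018, plus strand: acagTTTCAGTTTCTATTTCccag

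Gbp2, chr3:142620600-142620617, plus strand: ttagTTTCACTTTCactg

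Neither set of letters was in the searched bases of Ifi47. These matches describe letters, not binding.

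In the same annotation the 5 IRG genes on chromosome 11 lie in 2 stretches, with Irgm1 (chr11:48861968-48871683), Tgtp1 (chr11:48985327-48994172) and Ifi47 (chr11:49076587-49096974) in one and Igtp (chr11:58199556-58207591) and Irgm2 (chr11:58199618-58222782) in the other. Gbp7 (chr3:142530342-142550149), Gbp3 (chr3:142560026-142573209) and Gbp2 (chr3:142620602-142638008) lie in one stretch of chromosome 3 that also holds Gbp5 and, between Gbp3 and Gbp2, Gbp2b, and Gbp6 (chr5:105270702-105293698) lies on chromosome 5. Overlapping exons make some counts uncertain. Where exons overlap on the same strand, reads are ambiguous at any strand setting of the counting. On opposite strands the setting matters, and it is not stated. On the same strand Igtp and Irgm2 share 162 exonic bases, Tgtp1 shares 223 with Gm12185, and Gbp7 shares 637 with the pseudogene Gm43802. Gbp6 shares 1726 bases, 29.0% of its exons, with Gm43302, also on the same strand. Ifi47 shares 111 with Olfr56 on the same strand and 106 with the pseudogene Gm12188 on the opposite one. Gbp2 shares 24 with Mir6381 on the opposite strand. Tgtp1 with Tgtp2 and Gbp6 with Gbp10 are close copies between which reads can be split.

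Counts assigned to genes ranged from 16485900 to 23570458 per mouse (median 19149235), and no library duplicated another. The members' own counts ran from 14 (Tgtp1 in young vehicle male 1) to 6898 (Iigp1 in old vehicle male 4). The tissue label was matched by its markers, with Alb, the main plasma protein of hepatocytes, between 59527 and 133929 CPM in every mouse, where CPM are counts scaled to a common library size. Apoa1 and Ttr, which hepatocytes also secrete, were at 3508 CPM or above throughout.

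Scaled by transcript length, the 10 genes spanned more than 1 order of magnitude. In young vehicle females Iigp1 had the highest level, 67.7 ± 13.0 FPKM (SD, n = 5), followed by Irgm1 with 17.9 ± 1.56 and Igtp with 16.3 ± 2.26 FPKM, whose ranges overlapped. Irgm2 had 10.8 ± 1.34, Ifi47 7.71 ± 1.32 and Gbp3 4.74 ± 0.857 FPKM. Gbp6 (2.56 ± 1.18), Gbp7 (2.36 ± 0.532), Gbp2 (2.24 ± 0.281) and Tgtp1 (2.14 ± 0.264 FPKM) overlapped each other. Effectors thus stood at both ends of the order, with Iigp1 highest and Tgtp1 lowest by mean.

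Within a gene, levels are given from here on as CPM scaled by TMM factors over the 27 mice, and mice are named by group and number. Young vehicle males had the lowest mean of the 6 groups for 9 of the 10 genes, the exception being Irgm1, which was lowest in young vehicle females. Old vehicle males had the highest mean for 6 genes, old HDM201 males for Tgtp1, Ifi47 and Gbp2, and old vehicle females for Igtp. When the groups of each gene were put in order of their means, 2 of the 50 neighbouring pairs had ranges that did not overlap, young vehicle males below young vehicle females for Igtp and young vehicle males below the next group for Gbp2.

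**Figure D1:**
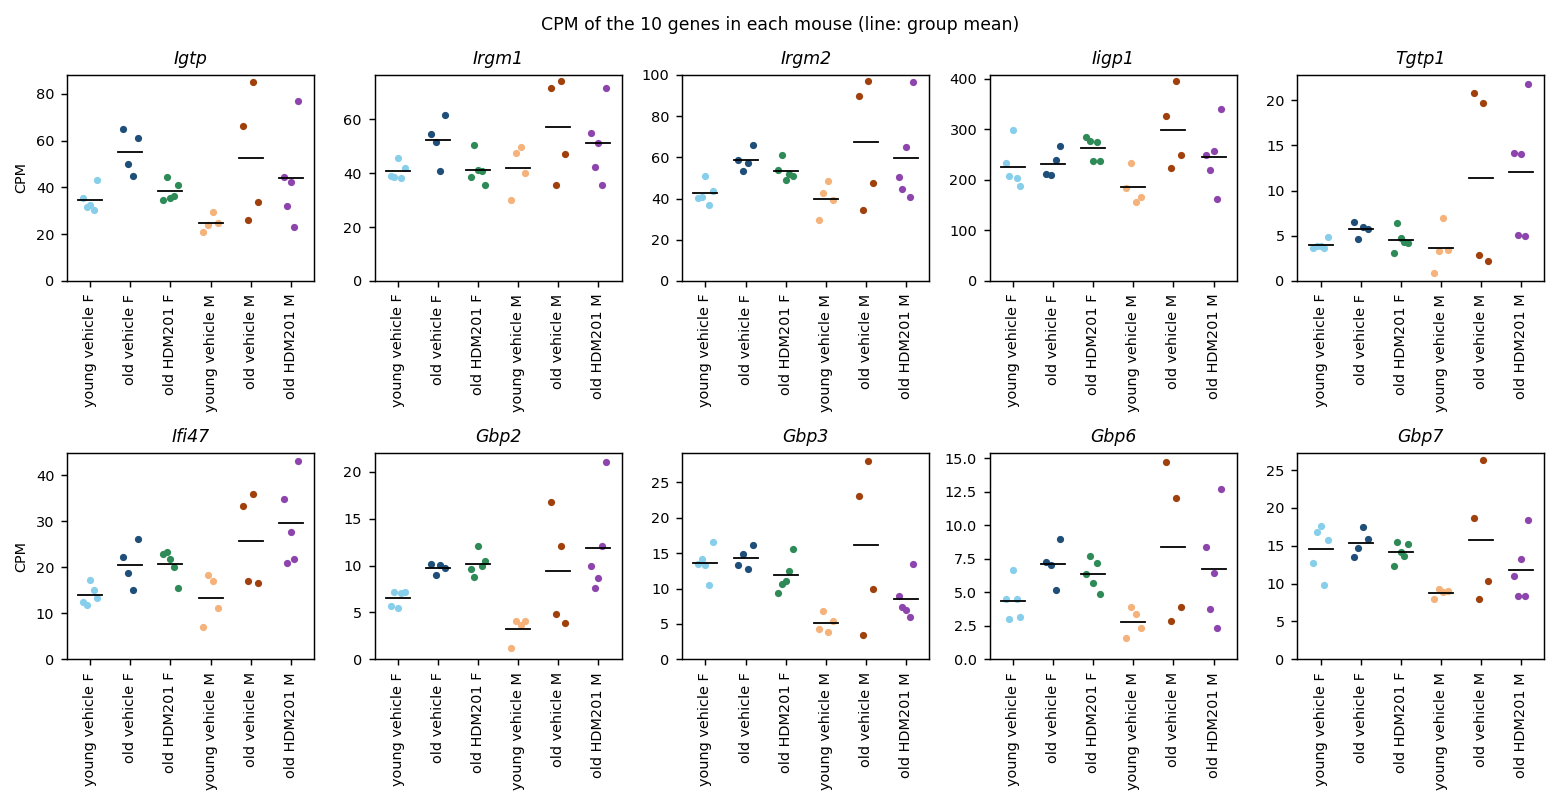
CPM of each of the 10 genes (vertical axes, from 0) in the 27 mice with counts, by group (horizontal axes, F female, M male); points are mice and lines are group means. Igtp in old vehicle females sits between 45.0 and 65.1 CPM, above every young vehicle and every HDM201 female, while the old vehicle males split into mice 2 and 4 above mice 3 and 5 in all 10 panels.

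The first comparison asked how the old liver differed from the young in vehicle-treated females. All 3 regulators, 2 of the 3 effectors and 2 of the 4 GBP genes rose with age, so that 7 of 10 passed the test as higher (Benjamini-Hochberg adjusted p under 0.05 over 14233 genes, edgeR quasi-likelihood test), none as lower, where 16.8% of all genes were called higher. The median log2 fold change of the 10 genes was 0.51, against 0.0094 over all genes tested, and all 10 values were above 0.

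All 3 regulators were among the 7. Igtp stood at 65.1, 50.0, 45.0 and 61.1 CPM in old vehicle females 1 to 4 and at 35.6, 31.8, 32.5, 30.4 and 43.0 CPM in young vehicle females 1 to 5. Every old mouse was above every young one, although old female 3 lay close to young female 5. The log2 fold change was 0.69 (SE 0.12, adjusted p = 0.00149), or 1.62-fold. Irgm2 measured 58.9, 53.4, 57.0 and 65.8 CPM in the old and 40.2, 41.0, 50.8, 36.6 and 43.9 CPM in the young females, again without overlap, and rose by 0.49 (SE 0.10, adjusted p = 0.00274). Irgm1, which in macrophages also controls autophagy and lysosome function, rose by 0.38 (SE 0.11, adjusted p = 0.0169), but old female 3 with 41.0 CPM lay within the range of the young mice, 38.4 to 45.6 CPM.

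The effectors differed from one another. Ifi47 rose by 0.57 (SE 0.16, adjusted p = 0.0142) with overlapping ranges of 15.1 to 26.2 and 11.7 to 17.3 CPM. Tgtp1 rose by 0.54 (SE 0.15, adjusted p = 0.0136), with old females at 4.66 to 6.57 and young females at 3.62 to 4.87 CPM. Iigp1, the most abundant of the 10, had nearly the same mean in both groups, 231 ± 27.2 CPM (SD, n = 4) in the old group and 226 ± 43.6 CPM (n = 5) in the young one, a log2 difference of 0.05 (SE 0.13, adjusted p = 0.787).

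Of the GBP genes, Gbp2, a protein that coats bacteria and parasite vacuoles, measured 10.2, 9.00, 10.1 and 9.71 CPM in old females and 5.72, 7.19, 5.51, 7.06 and 7.17 CPM in young females. The groups were well apart, with the smallest spread among old mice of any of the 10 genes (coefficient of variation 5.43%), and the log2 fold change was 0.59 (SE 0.12, adjusted p = 0.00253). Gbp6 rose by 0.72 (SE 0.23, adjusted p = 0.0301), the largest fold of the 10, with overlapping ranges of 5.15 to 8.96 and 2.98 to 6.70 CPM. Gbp3 (log2 fold change 0.09, SE 0.13, adjusted p = 0.616) and Gbp7 (0.10, SE 0.16, adjusted p = 0.650) did not pass the test, nor did Gbp2b (0.36, adjusted p = 0.246), which lies between Gbp3 and Gbp2 on chromosome 3. Igtp, Irgm2 and Gbp2 were the 3 genes without overlap between the groups, where 12.5% of all genes were higher without overlap. The 7 calls depended on the fit: with all 6 groups in one fit, which takes the wide spread of the old males into the shared estimate, none of the 10 genes passed (the adjusted p of Igtp was 0.0600), and without old vehicle female 4 there were 4 calls.

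The second comparison asked what HDM201 changed in the liver of old females. Igtp was the only one of the 10 genes to pass the test (14445 genes), and it fell, where 2.90% of all genes were called lower. Its values were 34.4, 44.2, 35.3, 36.5 and 41.2 CPM in old HDM201 females 1 to 5, against the 45.0 to 65.1 CPM of the old vehicle females given above. The highest treated mouse, female 2, lay just below the lowest vehicle mouse, female 3, so the groups did not overlap (4.63% of all genes were lower without overlap). The log2 fold change was -0.54 (SE 0.11, adjusted p = 0.0236), or 1.45-fold lower. The call was lost without old vehicle female 1 or 4 or without old HDM201 female 3 or 4, with an adjusted p between 0.0109 and 0.0706 over the 9 fits that each left out 1 mouse, and in the fit with all 6 groups (adjusted p = 0.328).

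The other regulators also had lower means without passing the test. Irgm1 had a log2 fold change of -0.35 (SE 0.12, adjusted p = 0.113) and Irgm2 one of -0.15 (SE 0.08, adjusted p = 0.305). Among the effectors the values ran in both directions: Tgtp1 had -0.35 (SE 0.18, adjusted p = 0.289), Ifi47 -0.0030 (SE 0.15, adjusted p = 0.994) and Iigp1 0.17 (SE 0.09, adjusted p = 0.299). The Ifi47 means, 20.7 ± 3.13 CPM (n = 5) with HDM201 and 20.6 ± 4.74 CPM (n = 4) with vehicle, were nearly equal.

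The GBP genes gave no call. Gbp3 had -0.28 (SE 0.13, adjusted p = 0.242), Gbp6 -0.17 (SE 0.17), Gbp7 -0.13 (SE 0.09) and Gbp2 0.06 (SE 0.10, adjusted p = 0.774). For Gbp2 the treated mice, at 9.63, 8.78, 12.1, 9.94 and 10.5 CPM, spanned the whole range of the vehicle mice. Over the 10 genes the median log2 fold change was -0.16, with 8 values below 0, against 0.0010 over all genes tested.

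HDM201-treated old females were also set against young vehicle females. This comparison shares the young mice with the comparison of age and the treated mice with the comparison of HDM201, so the values are given side by side and not as separate evidence. Gbp2, Ifi47 and Irgm2 passed as higher than young (3 of 10 genes, where 14.2% of all genes were called higher). Gbp2 was 0.65 higher on the log2 scale (SE 0.12, adjusted p = 0.00177) with no overlap (8.89% of all genes were higher without overlap), since the lowest treated mouse had 8.78 CPM and the highest young mouse 7.19 CPM. Ifi47 was 0.57 higher (SE 0.13, adjusted p = 0.00598), and Irgm2 0.33 higher (SE 0.09, adjusted p = 0.0164), both with overlapping ranges. Igtp, at 38.3 ± 4.22 CPM with HDM201 and 34.7 ± 5.06 CPM in young females, had a log2 fold change of 0.15 (SE 0.10, adjusted p = 0.308), and Irgm1 one of 0.03 (SE 0.09, adjusted p = 0.856). Gbp6 had 0.55 (SE 0.21, adjusted p = 0.0659). The median over the 10 genes was 0.20. Without young vehicle female 3 there were 5 calls, and with all 6 groups in one fit there were 0.

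**Figure D2:**
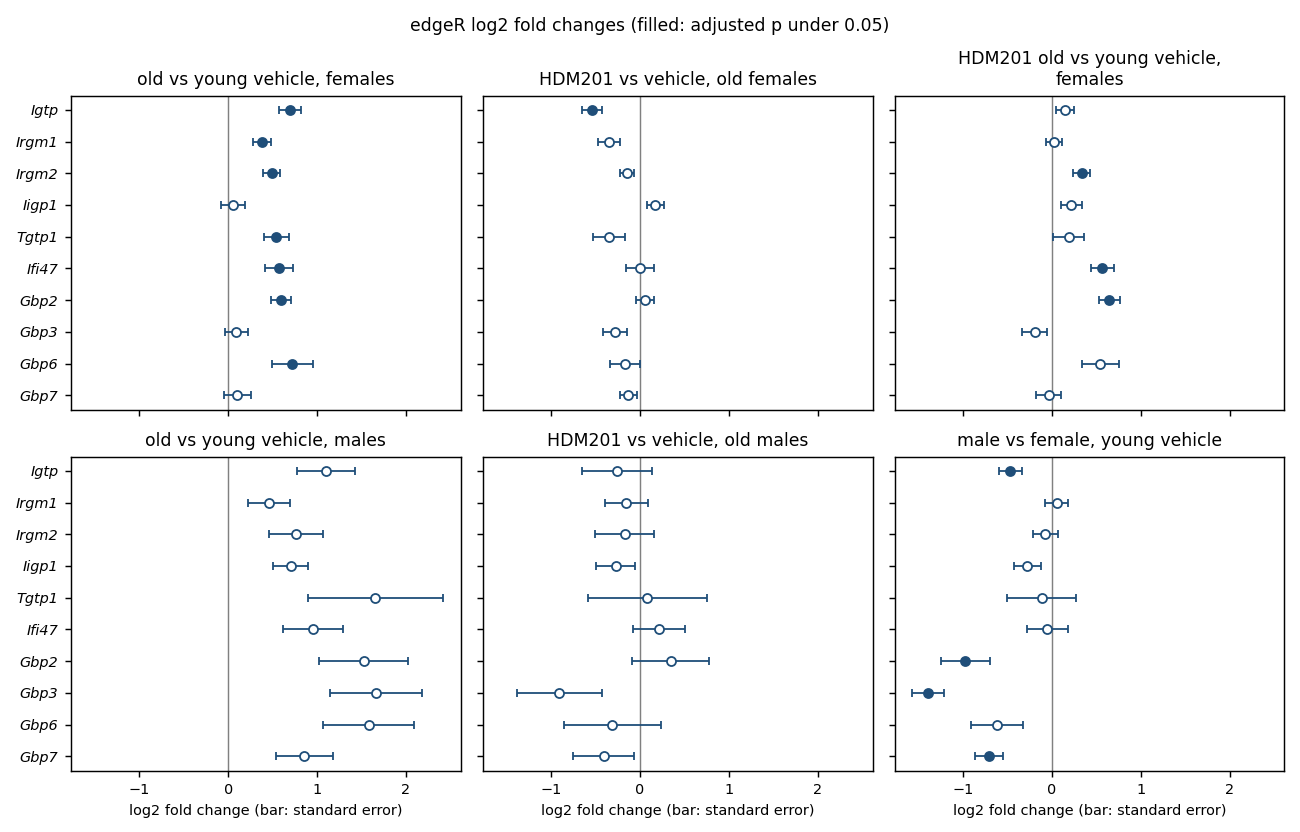
Log2 fold changes of the 10 genes (horizontal axes, bars are standard errors) in 6 comparisons; filled points have an adjusted p under 0.05 in edgeR. In females 7 points are filled for age, 1 for HDM201 (Igtp, -0.54) and 3 for HDM201-treated old against young, while the larger male values for age, up to 1.66, carry wide bars and open points.

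In males the same question about age gave larger differences with a larger spread. All 10 genes had higher means in old vehicle than in young vehicle males, with a median log2 fold change of 1.02 against -0.015 over all genes, and none passed the edgeR test (13755 genes), where 2.76% of all genes were called higher. At an unadjusted p under 0.05 there were 8 of the 10 genes, and 21.9% of all genes. DESeq2 called 3 (Igtp, Iigp1 and Gbp6), limma on FPKM values 0, edgeR without the filter on low counts 5, and edgeR with all 6 groups in one fit 8. Without old vehicle male 3, Igtp and Gbp3 were called.

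The old vehicle males split within the group. Igtp measured 66.2, 25.9, 85.0 and 33.9 CPM in old vehicle males 2 to 5 and 21.1, 23.8, 29.4 and 25.0 CPM in young vehicle males 1 to 4. Mice 2 and 4 were far above the young males, and mouse 3 lay within their range. The log2 fold change was 1.10 (SE 0.33, adjusted p = 0.0889). Gbp3 measured 23.0, 3.48, 28.0 and 9.98 CPM in the old and 4.28, 6.88, 3.91 and 5.45 CPM in the young males, so that old male 3 was below all the young mice (log2 fold change 1.66, SE 0.52, adjusted p = 0.0996). Tgtp1, at 20.8, 2.84, 19.7 and 2.23 CPM in the old and 0.843, 3.30, 6.96 and 3.41 CPM in the young males, had the widest spread of the 10 (1.65, SE 0.76, adjusted p = 0.241).

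For all 10 genes old vehicle males 2 and 4 were both above old vehicle males 3 and 5. Gbp6 (log2 fold change 1.58, SE 0.51), Gbp2 (1.52, SE 0.50), Ifi47 (0.95, SE 0.34), Gbp7 (0.85, SE 0.32), Irgm2 (0.76, SE 0.30), Iigp1 (0.70, SE 0.19) and Irgm1 (0.46, SE 0.24) completed the list, with adjusted p between 0.0712 and 0.292. Iigp1, which did not differ by age in females, had the lowest adjusted p of the 10 in males.

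Whether age acted differently in the sexes was tested as an interaction, in which sex cannot be told apart from the ages of the old mice, 24 months in males and 20 months in females. All 10 differences (male minus female) were above 0 with a median of 0.69 on the log2 scale, and none passed (14721 genes, of which 3.92% were called in either direction). At an unadjusted p under 0.05 there were 2 genes (21.5% of all genes), Gbp3 with 1.55 (SE 0.54, adjusted p = 0.103) and Iigp1 with 0.63 (SE 0.25, adjusted p = 0.141), while DESeq2 and limma called 0. Without the filter on low counts, or without old vehicle male 3, Gbp3 passed (adjusted p = 0.0449 and 0.00979).

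HDM201 in old males gave no call among the 10 genes (14109 genes tested, of which 0.00709% were called, all lower). The count at an unadjusted p under 0.05 was also 0 (12.1% of all genes), and DESeq2 and limma called 0. Igtp measured 44.6, 32.1, 42.4, 23.0 and 77.1 CPM in old HDM201 males 1 to 5, and every treated mouse but male 4 lay within the range of the vehicle males (log2 fold change -0.26, SE 0.39, adjusted p = 0.818). The largest difference belonged to Gbp3, which measured 8.89, 7.38, 7.03, 5.96 and 13.5 CPM with HDM201. These values fell between the high vehicle males 2 and 4 and the low vehicle male 3 (log2 fold change -0.91, SE 0.48, adjusted p = 0.464). The remaining values ran from -0.41 (Gbp7) to 0.35 (Gbp2), and the median over the 10 genes was -0.22 against 0.014 over all genes.

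The difference of the HDM201 effect between the sexes was tested as well, with the same difference in age between the old males and females. None of the 10 genes passed (14974 genes, of which 0.107% were called), none had an unadjusted p under 0.05 (18.5% of all genes did), and DESeq2 and limma called 0. For Igtp the male effect minus the female effect was 0.27 (SE 0.44, adjusted p = 0.792), so the fall of Igtp in females was not shown to differ from its change in males. The median over the 10 genes was 0.08.

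Young vehicle males were compared with young vehicle females to see the levels by sex without age or drug. Gbp3, Gbp2, Gbp7 and Igtp were lower in males (4 of 10 genes, where 5.63% of 13875 genes were called lower), and none was higher. Gbp3 measured 4.28, 6.88, 3.91 and 5.45 CPM in males and 13.5, 14.1, 13.4, 10.5 and 16.6 CPM in females. The groups lay far apart, with a log2 fold change of -1.39 (SE 0.18, adjusted p = 5.62e-04), or 2.62-fold lower in males. This was the strongest sex difference of the 10, and it kept its call in every fit tried here, with an adjusted p of at most 0.00850.

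Gbp2 measured 1.20, 4.09, 3.70 and 4.09 CPM in young males against 5.51 to 7.19 CPM in young females (log2 fold change -0.97, SE 0.27, adjusted p = 0.0419). Gbp7 measured 8.01, 9.33, 8.86 and 9.04 CPM in males and 12.7, 16.8, 17.6, 9.76 and 15.7 CPM in females (-0.71, SE 0.16, adjusted p = 0.0177). Igtp had -0.47 (SE 0.13, adjusted p = 0.0356). Each of the 4 genes was lower in all 4 males than in all 5 females, where 7.00% of all genes were lower without overlap, but young female 4 lay close to the males for Gbp7.

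The other genes of the set were not called, although all of them but Irgm1 also had values below 0. Gbp6 had -0.62 (SE 0.29, adjusted p = 0.195), Iigp1 -0.28 (SE 0.15), Tgtp1 -0.12 (SE 0.39), Irgm2 -0.07 (SE 0.14), Ifi47 -0.05 (SE 0.23) and Irgm1 0.05 (SE 0.13, adjusted p = 0.835). The 3 members on chromosome 3 were thus called, while Gbp2b (-0.71, adjusted p = 0.266) and Gbp5 (-0.48, adjusted p = 0.407) of the same stretch were not, and the regulators Irgm1 and Irgm2 had nearly equal means in both sexes. The calls other than Gbp3 were sensitive to single mice: without young male 4, young female 1 or young female 5, 2 genes were called, and with all 6 groups in one fit Gbp3 alone passed.

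The spread among mice of a group differed by sex. In the 3 female groups the median coefficient of variation of the 10 genes was between 12.8% and 15.3%, close to the median of 12775 expressed genes in the same groups (10.5% to 13.2%). In young vehicle males it was 23.7% (all genes 14.7%), in old HDM201 males 36.7% (13.4%) and in old vehicle males 52.8% (12.9%). The 90th percentile of all genes in old vehicle males was 36.1%. Within old vehicle males the coefficient ran from 26.3% for Iigp1 to 89.9% for Tgtp1.

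The genes moved together from mouse to mouse. After the group mean of log2(CPM + 1) was subtracted, the 45 pairs of genes had Pearson correlations between 0.37 and 0.92 over the 27 mice (median 0.75), and 44 pairs were above 0.5. These are descriptions, since all 10 genes of a mouse were measured in the same library, with its own preparation and depth. Old HDM201 male 5 had the highest value of its group for all 10 genes, old vehicle male 4 for 7, and young vehicle male 1 the lowest of its group for 8. Among females, old HDM201 female 2 was highest of its group for 7 genes, and old vehicle female 4 and young vehicle female 3 were highest of theirs for 6 each. Irgm1 with Gbp6 (r = 0.92) and Irgm1 with Ifi47 (0.91) were the closest pairs, and Iigp1 with Gbp2 (0.37) the loosest.

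**Figure D3:**
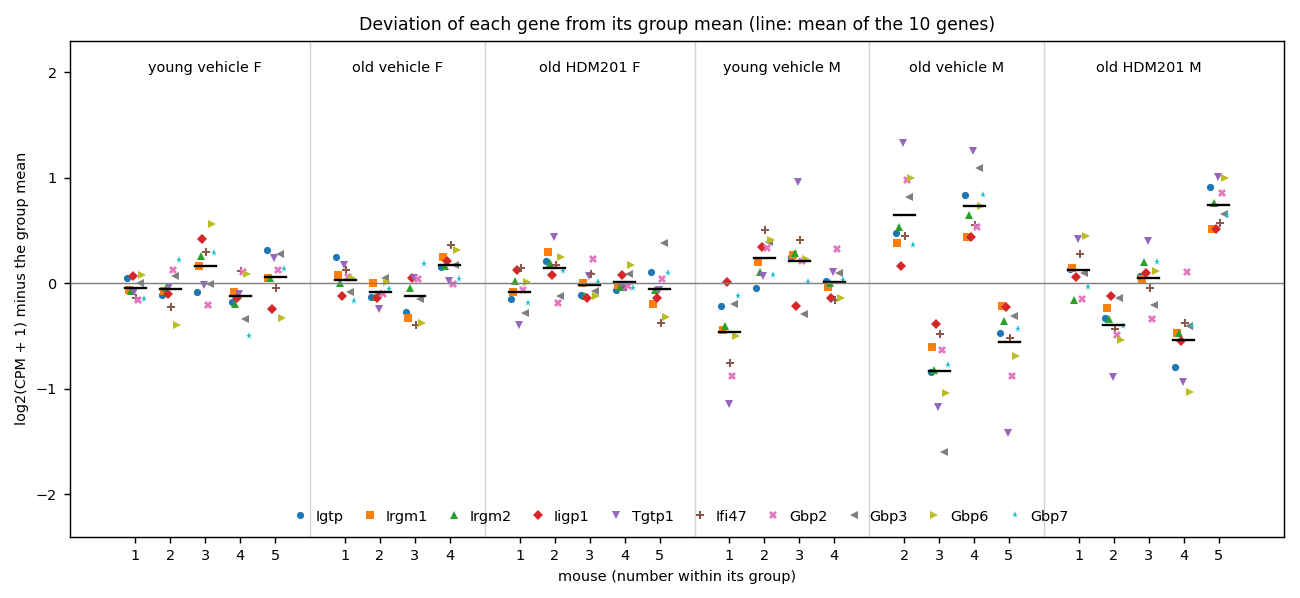
Deviation of each gene from its group mean on the log2(CPM + 1) scale (vertical axis) in each mouse (horizontal axis, numbered within its group); symbols are the 10 genes and lines their mean. The lines stay between -0.12 and 0.17 in females and run from -0.83 to 0.74 in males, with old vehicle males 2 and 4 and old HDM201 male 5 at the top.

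Among the 5 other genes whose within-group pattern was most like the mean of the 10 were Gm12250 (r = 0.93), Rnf213 (0.90), Zbp1 (0.89) and Herc6 (0.88), out of 12765 genes with a mean of at least 1 CPM, over 27 mice. Gm12250 is itself an IRG gene, Zbp1 a sensor of nucleic acids, and Rnf213 and Herc6 encode ubiquitin ligases that interferons induce. The median r of the genes compared was -0.015, and 4.78% were above 0.5.

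Of 19 other genes of both families, 14 passed the filter on low counts in each of the comparisons of age and of HDM201 in females. With age in females 4 of 14 were higher, Gbp8 (log2 fold change 0.82, adjusted p = 0.00502), Tgtp2 (0.70, adjusted p = 0.0243), 9930111J21Rik2 (1.40, adjusted p = 0.00559) and Irgq (0.48, adjusted p = 0.0361), and none lower, where 16.8% of all genes were called higher. With HDM201 in old females 3 of 14 fell, where 2.90% of all genes were called lower, and all 3 were GBP genes: Gbp2b, the former Gbp1, by 1.66 on the log2 scale (SE 0.28, adjusted p = 0.00987), Gbp8 by 0.92 (SE 0.19, adjusted p = 0.0198) and Gbp5, which promotes assembly of the NLRP3 inflammasome, by 0.68 (SE 0.18, adjusted p = 0.0467). The median of the 14 with HDM201 was -0.66, further from 0 than that of the 10 members.

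Gbp2b was also below young females in treated old females (-1.30, adjusted p = 0.00117), and Gbp10 was lower in young males than in young females (-1.09, adjusted p = 0.0405). In old males no gene of the list was called for age or HDM201. Gbp4, Gbp9, Gbp10, Gbp11, Gm12250, Gm4951, F830016B08Rik and Gm5431 were tested in both female comparisons of old vehicle mice without a call. Gm4841, Gm12185, Gm12187, 9930111J21Rik1 and Irgc1 did not pass the filter there, with Irgc1 and Gm12187 at 0 or 1 count in every mouse.

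The signalling chain upstream was measured in the same mice. Ifng itself had at most 4 counts in any mouse and 0 in 14 of 27, so it was not tested. The receptor and kinase genes moved little: in females the log2 fold changes with age were 0.25 for Ifngr1, 0.15 for Ifngr2, 0.08 for Jak1 and 0.05 for Jak2, with adjusted p from 0.0624 to 0.725. Irf1, which binds the ISRE, had 0.29 and -0.06, and neither passed.

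The transcription factor Irf8 rose with age in females by 1.03 (SE 0.12, adjusted p = 1.39e-04) and fell with HDM201 by 0.64 (SE 0.13, adjusted p = 0.0193). Ciita, the master regulator of MHC class II genes, rose by 2.02 (SE 0.23, adjusted p = 8.72e-05) and fell by 1.05 (SE 0.22, adjusted p = 0.0247). Nlrc5, its counterpart for MHC class I, had 0.07 and -0.10, and Socs1, the feedback inhibitor, 0.88 and -0.46, without a call. These opposite pairs share the old vehicle females. In females, 16.8% of all genes rose and 2138 of 14233 fell with age, while 339 of 14445 rose and 2.90% fell with HDM201, which are the shares beside which the counts of lists that follow stand. Of 19 signalling genes tested in females, 5 rose with age (Irf8, Ciita, Stat2, Socs3 and Il18bp), 1 fell with age (Il18) and 3 fell with HDM201 (Irf8, Ciita and Stat2). In old males none was called for age or HDM201.

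Other interferon targets were counted for context. Of 33 further interferon-gamma targets tested in females, led in level by the MHC class I genes H2-K1 and H2-D1 and by Serping1, 16 rose and 1 (Ube2l6) fell with age, with the largest rise for H2-DMb1 (log2 fold change 1.44, adjusted p = 1.96e-04). With HDM201 8 of 33 fell, most of all the MHC class II gene H2-Ab1 (-1.03, adjusted p = 0.00423), and the list median was -0.27. Of 29 genes known best as type I interferon targets, led by Bst2, Ifi27 and Irf7, 9 rose and 2 (Usp18 and Ifih1) fell with age in females, and 9 fell with HDM201, most of all Ifi27l2a (-1.05, adjusted p = 0.00987). In males 9 of these 29 and 9 of 33 interferon-gamma targets rose with age, where 2.76% of all genes were called higher. None of either list fell. Among the 29 the largest rise was that of Ifi44 (2.64, adjusted p = 0.0312). The interaction of sex and age called 8 of the 29 as larger in males, where 280 of 14721 genes were called in that direction. The summed CPM of the type I list was 1190, 537, 1414 and 870 in old vehicle males 2 to 5, so mice 2 and 4, the ones with high IRG and GBP levels, were high here too.

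Markers of cell types moved in the same comparisons. Of 16 Kupffer cell and macrophage markers, 14 rose and 1 (Cd163) fell with age in females, and 14 fell with HDM201. Their summed level ranged from 612 to 1223 CPM in old vehicle, from 384 to 612 CPM in old HDM201 and from 378 to 560 CPM in young vehicle females. The defining markers Adgre1, Clec4f and Cd68 were above 0 in every mouse. The part of these cells in the fall of Igtp and in the rise of the 7 members was not tested.

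Of 9 monocyte and dendritic cell markers tested, 7 rose with age and 1 (Cd300e) fell with HDM201 in females. Of 8 B and plasma cell markers 7 rose with age and 1 (Cd79b) fell with HDM201. Of 10 T and NK cell markers 3 rose with age (Cd8a, Cd2 and Nkg7). With HDM201 edgeR called 0 of these 10 markers. At an unadjusted p under 0.05 there were 3 of them, against 3247 of all 14445 genes. At that threshold there were 7 of the 9 monocyte and dendritic cell and 5 of the 8 B and plasma cell markers. Median log2 fold changes with HDM201 were -0.78 for monocyte and dendritic cell, -0.79 for B and plasma cell and -0.40 for T and NK cell markers. Their summed levels in old vehicle, old HDM201 and young vehicle females were 18.6 to 35.0, 13.7 to 18.2 and 8.77 to 9.88 CPM for monocytes and dendritic cells, 21.02 to 42.4, 13.2 to 24.2 and 5.21 to 7.35 CPM for B and plasma cells, and 10.7 to 12.5, 6.90 to 11.7 and 5.51 to 7.96 CPM for T and NK cells. Itgam was at 0 in 1 mouse, and the other defining markers named for these lists (Ly6c2, Ccr2, Cd79a, Cd79b, Cd3e, Cd3d and Cd3g) were above 0 in every mouse.

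With age in males 5 of 16 macrophage, 3 of 6 monocyte and dendritic cell and 5 of 7 B and plasma cell markers rose. Of 3 T and NK cell markers 0 rose, none of these markers fell, and 2.76% of all genes were called higher. In old vehicle males 2 to 5 the T and NK sum was 14.8, 7.31, 17.3 and 8.54 CPM and the macrophage sum 511, 378, 800 and 271 CPM. Mice 2 and 4 were again the higher ones. They also led the monocyte and dendritic cell sum (26.4, 13.5, 26.5 and 11.8 CPM) and the hepatocyte sum (145005, 133370, 165548 and 117909 CPM). The sums of B and plasma cells (33.8, 20.3, 18.3 and 20.6 CPM), bile duct (74.6, 68.3, 63.3 and 54.9 CPM) and endothelium (184, 187, 196 and 179 CPM) did not split this way. In old HDM201 males 1 to 5 the T and NK sum was 42.5 CPM in male 1 and 10.0 to 17.9 CPM in the others, so male 1 and not male 5, the mouse with the highest IRG and GBP levels, led it. The macrophage sum was highest in male 5 (1023 CPM against 401 to 577 CPM in the others). So was the monocyte and dendritic cell sum (35.3 CPM against 15.5 to 27.6 CPM). The hepatocyte sum of male 5 was the lowest of the group (82086 CPM against 109204 to 157470 CPM), unlike that of old vehicle males 2 and 4. Male 5 did not lead the sums of B and plasma cells, bile duct or endothelium. In females, endothelial markers gave 1 rise (Cdh5) and 1 fall (Lyve1) of 9 with age, a share below that of all genes in each direction, and 1 fall (Cdh5) with HDM201. Hepatocyte markers gave 3 falls of 8 with age (Cps1, Cyp2e1 and Serpina1c). With HDM201 they gave 0 calls, with 2 at an unadjusted p under 0.05 (3247 of 14445 among all genes). Bile duct markers gave 2 rises of 5 with age (Sox9 and Spp1) and 2 with HDM201 (Epcam and Spp1). The part of any of these in the male spread was not tested.

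The 2 mice without counts were compared with the others of their group by FPKM, with no test. Old vehicle male 1 was above the other 4 old vehicle males for all 10 genes. Igtp was listed at 154 FPKM against 12.8 to 39.0 in the others, Tgtp1 at 115 against 1.73 to 10.9, Iigp1 at 315 against 69.9 to 117 and Gbp2 at 29.8 against 1.31 to 5.81 FPKM. The factor over the next highest mouse ran from 2.27 (Irgm2) to 10.6 (Tgtp1), so the split seen among old vehicle males widens when this mouse is added. In the same mouse Ifng was at 0.824 against 0 to 0.0945 FPKM and Cxcl9, a chemokine induced by interferon-gamma, at 47.2 against 2.45 to 10.3 FPKM.

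Immune markers were also high in this mouse. The summed B and plasma cell markers were at 322 against 10.2 to 20.2 FPKM, T and NK cell markers at 42.8 against 5.01 to 10.9 and macrophage markers at 1429 against 175 to 515 FPKM, while hepatocyte markers were at 44371 against 56745 to 80030 FPKM. Young vehicle male 5 was above the other 4 young vehicle males for 6 of the 10 genes, by at most 1.74-fold (Ifi47, 17.4 against 3.74 to 10.0 FPKM), and within or below their range for Igtp, Tgtp1, Gbp3 and Gbp6. Ifng was listed at 1.68 FPKM in this mouse, against 0 to 0.0448 FPKM in the others. Its summed markers also stood apart, with macrophage markers at 510 against 99.9 to 207 FPKM, monocyte and dendritic cell markers at 38.5 against 2.19 to 3.05 and B and plasma cell markers at 11.0 against 2.85 to 5.20 FPKM. Bile duct markers were at 83.8 against 15.8 to 25.3 and hepatocyte markers at 48563 against 52353 to 61477 FPKM, while T and NK cell markers, at 3.48 FPKM, lay within the range of the others. The study's methods report that a young male was left out of the analysis for an open wound and a suspected infection. Whether that mouse was young vehicle male 5 is not stated. With old vehicle male 1 included, limma on log2(FPKM + 0.1) still called none of the 10 genes for age or HDM201 in males.

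**Figure D4:**
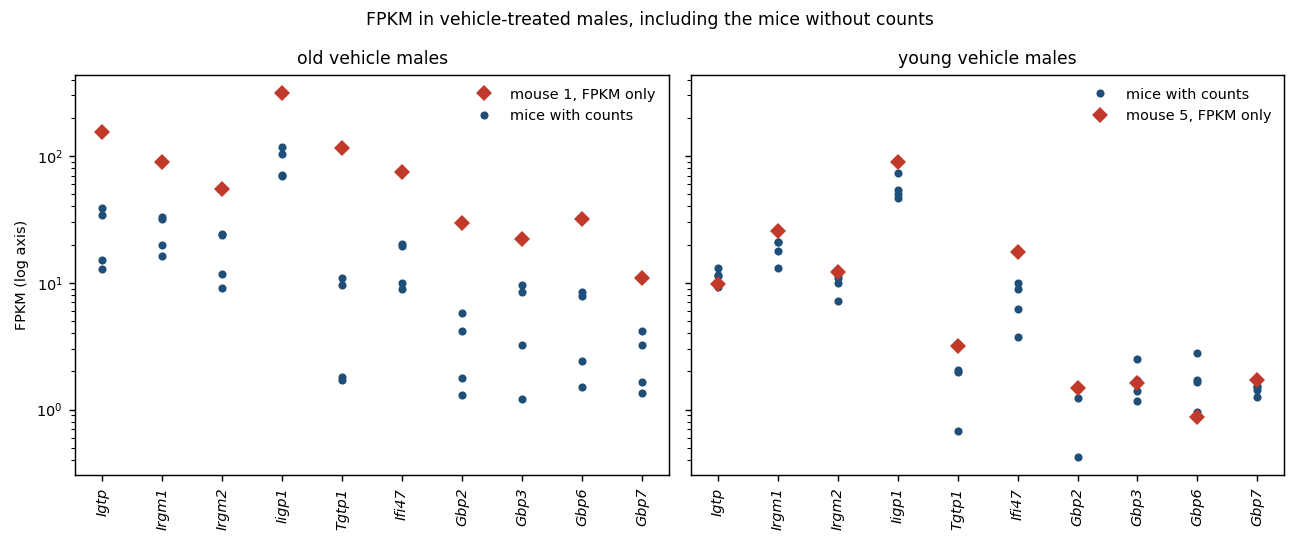
FPKM of the 10 genes (vertical axes, log scale) in vehicle-treated old males (left) and young males (right); red diamonds are the mice that have FPKM values only and blue points the 4 mice with counts. Old vehicle male 1 lies above the other old males in all 10 genes, at 154 FPKM for Igtp, and young vehicle male 5 above the other young males in 6.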

How the data were processed

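Whole-liver RNA-seq of 29 mice was used, grouped by the labels of sex, age and treatment. Alignment by the authors used STAR in 2-pass mode on mm10, followed by SAMtools filtering, HTSeq counting and DESeq2; tool versions and the strand setting are not given in the sources used here. The deposited counts are raw whole numbers for 27 mice. The deposited FPKM values, made by the authors with Cufflinks, cover 29 mice, scale with library size and transcript length, and have empty cells, read here as 0. Their sums were between 690769 and 843180 in all but 3 mice (young vehicle female 5, old HDM201 female 1 and old HDM201 male 5), which had 1153250 to 6010510, so FPKM served for levels between genes, to describe the pair of males that lack counts, and in alternative fits. The comparisons in males had been planned for 5 vehicle mice of each age, and 4 had counts.

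Every contrast used only the groups it names, in edgeR 4.0.16 under R 4.3.3, with filterByExpr (minimum count 10, minimum total 15), TMM, quasi-likelihood F test and Benjamini-Hochberg adjusted p over all genes tested, called under 0.05. Interactions used the 4 groups concerned. The SE is the absolute log2 fold change over the square root of F. Alternatives were DESeq2 1.42.0, limma 3.58.1 on log2(FPKM + 0.1) and log2(FPKM + 1), other size factors, no filter, all 6 groups in one fit, a replicate block, an adjusted p under 0.01 and leaving out each mouse. The limma fit on mice with counts was chosen after seeing the data. Some edgeR fits were also run on simulated counts with the same dispersion for every gene. That setting does not cover the wide spread of the 10 genes in old males. Overlap of groups was read from CPM scaled over all 27 mice. P-values weigh the difference between groups against the spread between these mice.

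The 10 members and the gene lists were chosen with earlier results of these data known. Named besides the members are all other GBP and IRG genes, signalling genes, of each other list genes with the highest mean or the largest called rise or fall, markers that define a cell type, and the genes most alike. Cxcl9, Stat2, Socs3, Il18, Il18bp and single called members of lists with 5 or fewer calls fall outside this rule and were chosen after their values were seen. Of the 55421 gene IDs, 54587 matched GENCODE vM21 (GRCm38). Promoter sequences are from RefSeq. Coordinates of Iigp1 and values of some list genes are not reported here. Figures were drawn with matplotlib.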

Additional observations from a re-analysis of the deposited data

Results flagged for a closer look

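In young vehicle females Tgtp1 in mouse 5, 4.87 CPM, stood apart from the other 4 mice at 3.62 to 3.90 CPM. In young vehicle males Gbp2 in mouse 1, 1.20 CPM, stood apart from the other 3 at 3.70 to 4.09 CPM. These are 2 of 60 combinations of gene and group examined with Dixon's criterion, and chance alone picks about 1 in 20.

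Old vehicle male 1, which has FPKM values and no counts, exceeded the other 4 old vehicle males in all 10 genes. Its values were 154 FPKM for Igtp, 90.0 for Irgm1, 54.7 for Irgm2, 315 for Iigp1, 115 for Tgtp1 and 74.9 for Ifi47. For the GBP genes they were 29.8 FPKM for Gbp2, 22.2 for Gbp3, 32.0 for Gbp6 and 11.0 for Gbp7.

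Young vehicle male 5, also without counts, exceeded the other 4 young vehicle males in 6 genes: Irgm1 at 25.6 FPKM, Irgm2 at 12.1, Iigp1 at 90.2, Ifi47 at 17.4, Gbp2 at 1.49 and Gbp7 at 1.70 FPKM. For Gbp2 and Irgm2 the gap to the next mouse was small, at 1.46 and 11.5 FPKM. The differences of both mice from their groups were not tested. The study left out a young male for an open wound and suspected infection, and whether it was young vehicle male 5 is not stated.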

How the results depend on the processing

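Every alternative gave a fit. Of the single-gene values under settings that kept every mouse, 630 kept their direction and side of the threshold, 25 newly passed it, 29 no longer did and 36 turned direction; when each mouse was left out in turn, these were 818, 7, 23 and 42. The values that turned direction were called neither before nor after, and the cause was not tested. Depth limits Tgtp1, Gbp2 and Gbp6 most, with as few as 14 counts in a mouse.

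The number of members called for HDM201 in old females was 0 instead of 1 at an adjusted p under 0.01, with all 6 groups in one fit and in all 3 limma fits on FPKM. For age in females it was 3 at an adjusted p under 0.01 and 0 with all 6 groups. For age in males it was 3 with DESeq2, 5 without the filter and 8 with all 6 groups. For HDM201-treated old against young females it was 0 with all 6 groups and 5 in the limma fits, for sex in young mice 1 at an adjusted p under 0.01 and with all 6 groups and 2 in the limma fits, and for the interaction of sex and age 1 without the filter. The median log2 fold change was 0.66 for age in females with limma on log2(FPKM + 0.1), and for HDM201-treated old against young females 0.33 on that scale and 0.32 on log2(FPKM + 1).

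Leaving out 1 mouse at a time gave 0 to 2 members called for HDM201 in old females, 4 to 7 for age in females, 0 to 2 for age in males, 3 to 5 for HDM201-treated old against young females, 2 to 4 for sex in young mice and 0 to 1 for the interaction of sex and age. The median for sex in young mice ran from -0.60 to -0.28.

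Among single genes that turned direction, Ifi47 with HDM201 in old females was 0.0024 with DESeq2, 0.0062 with all 6 groups, 0.0030 with limma at + 0.1 and 0.0016 at + 1. With old vehicle male 1 included, limma at + 0.1 gave HDM201 in old males values of -0.42 (Tgtp1), -0.13 (Ifi47) and -0.045 (Gbp2), and at + 1 values of -0.48, -0.13 and -0.12. On mice with counts Irgm2 was 0.0054 there. In HDM201-treated old against young females Gbp7 was 0.059 with total counts, 0.18 with limma at + 0.1 and 0.13 at + 1, and Gbp3 0.16 and 0.14. Ifi47 by sex was 0.10 and 0.11 with limma. For the interaction of sex and HDM201, Irgm2 was 0.10 with total counts and 0.16 with limma on mice with counts, limma at + 0.1 gave -0.15 (Igtp), -0.018 (Irgm1), -0.13 (Ifi47) and -0.11 (Gbp2), and at + 1 -0.15 (Igtp), -0.024 (Irgm1), -0.078 (Tgtp1), -0.13 (Ifi47) and -0.18 (Gbp2). For the interaction of sex and age Irgm1 was -0.075 with limma on mice with counts.

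With 1 mouse left out, ranges that crossed 0 were, for HDM201 in old females, -0.011 to 0.11 (Gbp2) and -0.12 to 0.14 (Ifi47), and for HDM201 in old males -0.68 to 0.11 (Gbp6), -0.57 to 0.063 (Igtp), -0.42 to 0.054 (Irgm2) and -0.26 to 0.55 (Tgtp1). For age in females they were -0.021 to 0.17 (Gbp7) and -0.022 to 0.16 (Iigp1), and for HDM201-treated old against young females -0.15 to 0.029 (Gbp7) and -0.053 to 0.076 (Irgm1). For sex they were -0.23 to 0.16 (Ifi47), -0.050 to 0.18 (Irgm1), -0.19 to 0.046 (Irgm2) and -0.64 to 0.20 (Tgtp1). For the interaction of sex and HDM201 they were -0.028 to 0.72 (Gbp2), -0.51 to 0.27 (Gbp6), -0.50 to 0.067 (Gbp7), -0.033 to 0.59 (Igtp) and -0.27 to 0.19 (Irgm2), and for the interaction of sex and age -0.086 to 0.24 (Irgm1).

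Replicate numbers did not pair the mice: deviations of same-numbered mice correlated between -0.17 and 0.17. A replicate block gave 0 members called for HDM201 in old females (adjusted p of Igtp 0.0535) and 1 for sex in young mice, and turned Ifi47 with HDM201 in old females to 0.11, Iigp1 with age in females to -0.0030 and Irgm2 in the interaction of sex and HDM201 to 0.047.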
